A study of Mus musculus with 26 samples.

Results

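Crypt-enriched small intestine of mice was compared between animals labelled Fgfr1op KO and animals labelled WT. The comparison took 12 of the 26 samples of the series, 6 KO and 6 WT, and they were chosen by genotype alone. Per the labels, each genotype has 3 samples at day 6 and 3 at day 9 after tamoxifen, from 3 mice a group. The 12 columns of the deposited count table name the genotype and a running number from 1 to 6 but no day, so both days were pooled, no library was assigned a day, and libraries are named by that running number. Each column name also holds a further number, which no label explains, and these numbers fall in 2 ranges: KO libraries 1 to 3 and WT libraries 1 and 2 carry the lower one, and KO libraries 4 to 6 and WT libraries 3 to 6 the higher one. A fall or rise that differs between day 6 and day 9 cannot be told apart here from a difference between animals. The KO allele, the exons that it removes, the cells in which tamoxifen acts, the strain and the ages are not stated in the labels, and WT animals at the same days after tamoxifen are the control. About 5 cm of small intestine was treated with cold EDTA and fractions 4 to 6 were kept, and genes of villus enterocytes and, at low levels, of immune and wall cells were also detected. In such bulk samples fewer cells of a type and less RNA per cell cannot be told apart.

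The product of Fgfr1op, known as Cep43 or FOP, sits at the centrosome and at the base of the cilium and helps to anchor microtubules and to dock centriolar proteins. Crypts of the small intestine house the Lgr5-positive stem cells, which divide between Paneth cells and supply the enterocytes, goblet, enteroendocrine and tuft cells of the villus. Cells that lose centrosome function are known to stabilise p53, a transcription factor that halts the cycle and can start cell death. After injury, crypt cells are known to leave the stem cell state for a time and to take on a repair state, marked by Clu, Ly6a and annexins and driven in part by YAP, which resembles fetal epithelium.

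The KO libraries held 48068740 to 88869286 counts and the WT libraries 49536700 to 103352863. The epithelial genes Epcam, a surface adhesion molecule, and Vil1, a brush border actin bundler, were at 352 to 813 CPM and 777 to 1428 CPM in KO and at 332 to 507 CPM and 1099 to 2104 CPM in WT. CPM gives a gene's reads after all libraries were brought to a common total by TMM scaling. KO libraries 4, 5 and 6 stood apart from the other 9. On the first principal component, which held 56.0% of the variance, they lay at 101.7, 124.3 and 106.7, while KO libraries 1 to 3 lay between -19.2 and 5.16 and the WT libraries between -64.4 and -37.3. The WT libraries of the 2 number ranges overlapped there, with WT libraries 1 and 2 at -58.5 and -37.3. Values of these 3 KO libraries are therefore given beside those of the other KO libraries, and the counts of called list members are given with and without them. In 1 KO and 1 WT library Y-linked counts exceeded those of Xist, so both sexes occur in both genotypes.

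**Figure D1:**
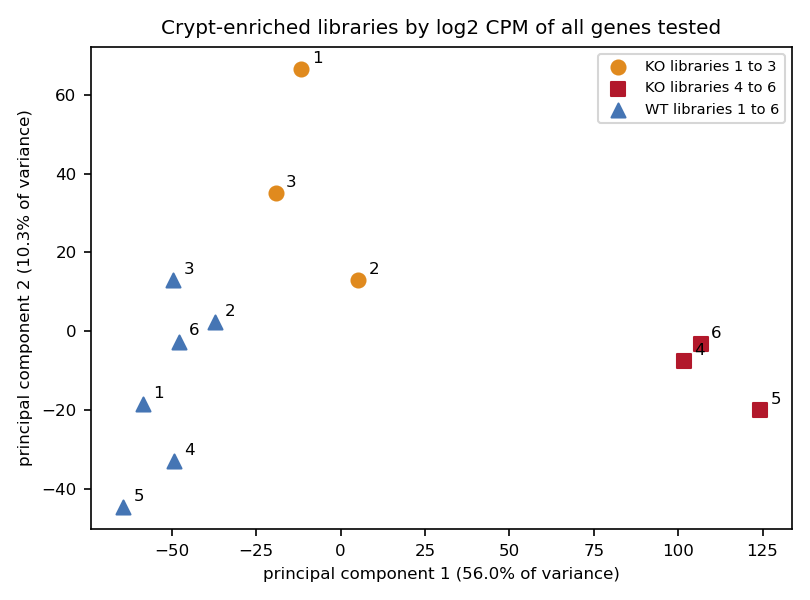
Position of the 12 crypt-enriched libraries on the first 2 principal components of log2 CPM over all genes tested, with the share of variance on each axis. Numbers are the running numbers in the deposited table. KO libraries 4 to 6 (squares) lie between 101.7 and 124.3 on the first component, far from KO libraries 1 to 3 (circles) and the WT libraries (triangles).

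Fgfr1op itself (ENSMUSG00000069135, chromosome 17, 8165501 to 8196804, mm10) was lower in KO. Its level was 11.7, 24.2, 18.7, 25.9, 24.1 and 21.8 CPM in KO libraries 1 to 6 and 25.2, 39.0, 25.6, 38.6, 32.6 and 36.7 CPM in WT libraries 1 to 6. The groups overlapped at 1 point: KO library 4 lay above WT libraries 1 and 3. KO library 1 had the lowest level. The KO mean of 21.1 ± 5.22 CPM was 36.1% below the WT mean of 32.9 ± 6.27 CPM (± SD over 6 libraries each). In edgeR this was a log2 fold change of -0.65 ± 0.19 (± SE), adjusted p 0.0261. On log2 CPM, an exact permutation test (two-sided) gave p = 0.00649, where the smallest that 6 against 6 can give is 0.00216. Without KO libraries 4 to 6 the fold change was -0.85 (adjusted p 0.0483), and the adjusted p was 0.0528 without WT library 2 and 0.0543 without WT library 6. Reads of exons that the allele keeps count towards these levels.

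Many genes differed between the genotypes, and fewer were called without KO libraries 4 to 6. Of 16413 genes tested, 2290 were higher in KO (14%) and 1724 lower (10.5%), 24.5% in all, at an adjusted p below 0.05. At least 2-fold changes among them were 1027 rises (6.26%) and 771 falls (4.7%). With KO libraries 4 to 6 left out, 460 genes were higher (2.72%) and 464 lower (2.74%) of 16924 tested, 5.46% in all. Of the genes called with all 12 libraries, 832 were also called without those 3, all in the same direction, 3182 were not, and 3984 of 4014 kept their sign. That fit has 3 KO libraries in place of 6, and the parts of the lower number and of the libraries themselves in the drop were not tested. Within the lower range of column numbers, 3 KO against 2 WT libraries, 27 of 17301 genes were called (0.156%). Within the higher range, 3 KO against 4 WT libraries, 6940 of 16886 were called (41.1%), and a block on the 2 ranges gave 5186 calls over all 12 libraries (31.6%). Fgfr1op was at -0.82 in the lower range (adjusted p 0.573), at -0.52 in the higher (adjusted p 0.0278) and at -0.62 with the block (adjusted p 0.0222). The KO and WT libraries did not overlap in 1742 genes (10.6%). The median log2 fold change over all genes tested was 0.055, or 0.031 without KO libraries 4 to 6, and it stands as the background for the lists below. Where a list's count changed by over 1.5 times with 1 library left out, or with limma voom or DESeq2 as the test, those counts are given beside it. Over all genes voom called 22.1% higher and 21.8% lower and DESeq2 13.5% and 11.7%, and edgeR called 2749 to 5005 genes with 1 library left out. Fold changes in parentheses are the log2 of KO over WT ± SE over 6 and 6 libraries, and those given without a p passed the adjusted p of 0.05 unless the text says otherwise.

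**Figure D2:**
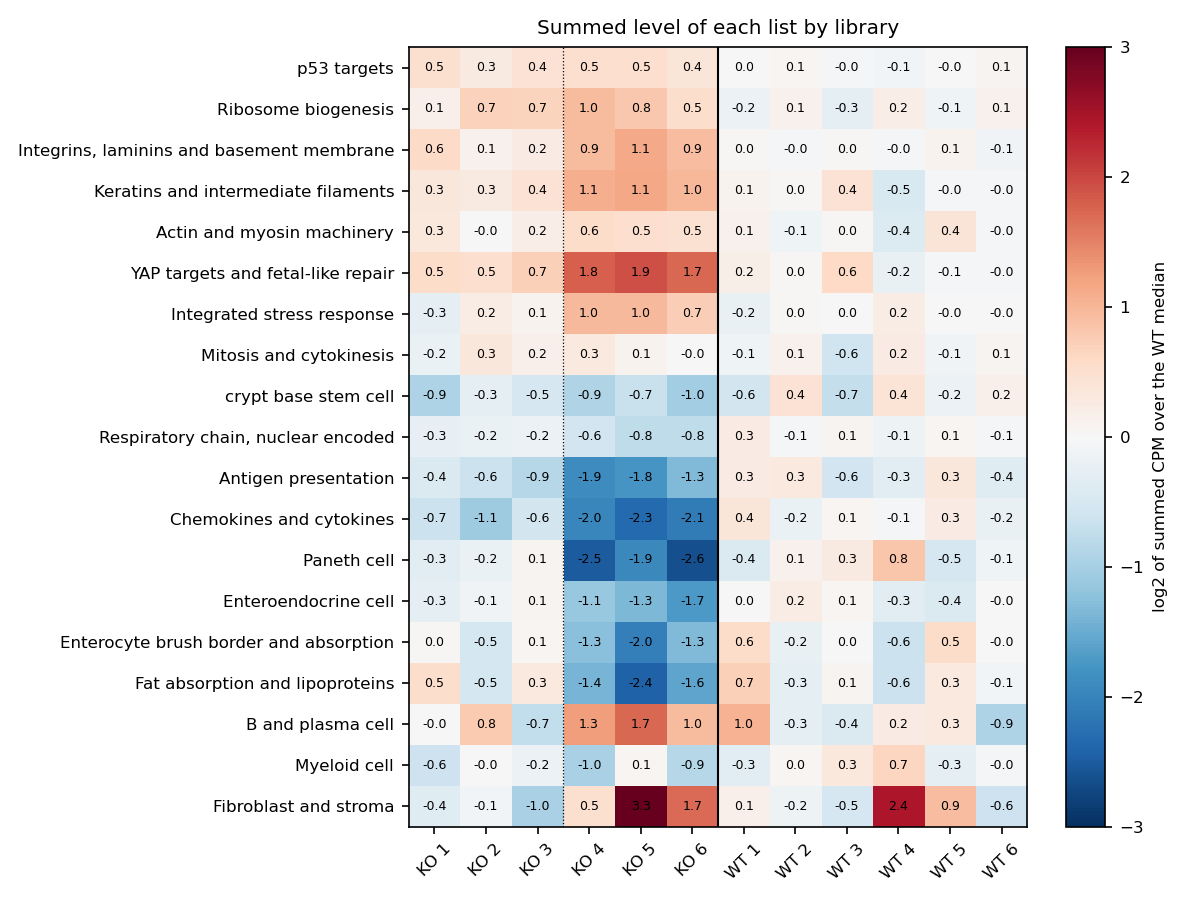
Summed CPM of each gene list in each library, as log2 of its ratio to the median of the 6 WT libraries (colour and number in each cell). Sums of p53 targets (1206 to 1416 CPM in KO) are above 0 in every KO library, while the fetal-like repair list, at 19710 to 22998 CPM in KO libraries 4 to 6, is much higher there than in KO libraries 1 to 3.

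Among targets of p53 many genes rose. The median fold change of the list was about as large with KO libraries 1 to 3 alone as with all KO libraries. Of 39 members tested, 16 rose and 3 fell, against 14% and 10.5% of all genes, with a median log2 fold change of 0.47. Without KO libraries 4 to 6, 11 rose and none fell, against 2.72% and 2.74% of all genes, with a median of 0.51. The summed level of the list was 1206 to 1416 CPM in KO and 945 to 1044 CPM in WT. Bax, which permeabilises the outer mitochondrial membrane in apoptosis (ENSMUSG00000003873, chromosome 7, 45461697 to 45466898), was at 91.5, 84.6, 80.5, 90.0, 99.1 and 74.1 CPM in KO libraries 1 to 6 and 46.7, 52.4, 49.8, 41.7, 40.2 and 45.9 CPM in WT libraries 1 to 6. The lowest KO library lay well above the highest WT library. Bax rose by 0.91 ± 0.11 on the log2 scale (adjusted p 0.00109), and by 0.89 without KO libraries 4 to 6 (adjusted p 0.00408). Plk3, a stress-responsive kinase, had a lowest, median and highest level of 12.2, 26.4 and 46.8 CPM in KO and 2.56, 4.33 and 7.36 CPM in WT (log2 fold change 2.50 ± 0.31, adjusted p 0.00109). Its KO levels were 12.2 to 26.0 CPM in libraries 1 to 3 and 26.8 to 46.8 CPM in libraries 4 to 6, so both sets lay above WT. Phlda3, an inhibitor of Akt, was low throughout, at 0.409 to 2.33 CPM in KO and 0.0296 to 0.112 CPM in WT (3.75 ± 0.50, adjusted p 0.00118), with its highest level in KO library 1. The 3 falls among p53 targets became 0 to 1 without KO library 4, 5 or 6 or WT library 2, 4, 5 or 6.

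More targets were called. Cdkn1a, the p21 inhibitor of cyclin-dependent kinases, was at 187 to 273 CPM in KO and 73.4 to 177 CPM in WT. This is a rise of 0.82 ± 0.18 with no overlap (adjusted p 0.00732). Mdm2, the ubiquitin ligase that limits p53, rose by 1.06 ± 0.19, and its KO levels of 20.8 to 29.0 CPM in libraries 1 to 3 and 30.0 to 35.4 CPM in libraries 4 to 6 all exceeded the highest WT level of 16.7 CPM. Ccng1, an atypical cyclin, rose by 0.80 ± 0.16, and 5 of 6 KO libraries lay above every WT library. Sesn2, a sensor of leucine and of stress, rose by 1.19 ± 0.16, from 3.28 to 4.14 CPM in WT to 6.28 to 10.8 CPM in KO. Plk2, which takes part in centriole duplication, rose by 3.36 ± 0.45 from 1.19 to 2.87 CPM in WT. Its level was 8.26 to 10.9 CPM in KO libraries 1 to 3 and 24.7 to 48.5 CPM in KO libraries 4 to 6. Bbc3, the BH3-only protein Puma, rose by 1.42 ± 0.44. Fas, a death receptor, was lower (-1.40 ± 0.47), with 14.9 to 25.3 CPM in KO libraries 1 to 3, 4.12 to 5.95 CPM in KO libraries 4 to 6 and 24.1 to 51.4 CPM in WT. Sesn1, a relative of Sesn2, was also lower (-0.78 ± 0.25). The calls of Bbc3 (1.14), Fas (-0.69) and Sesn1 (-0.44) ended without KO libraries 4 to 6, with the log2 fold change left in parentheses.

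Of genes of the division cycle and the centrosome, shares below the 24.5% of all genes were called. Of 43 genes of the G1/S transition and DNA replication, 4 rose and none fell (median 0.27). Of 44 genes of mitosis and cytokinesis, 7 rose and 1 fell (median 0.17). Both shares of rises, 4 of 43 and 7 of 44, lie near the 14% over all genes. Mcm2, a subunit of the replicative helicase, was at 54.2 to 98.0 CPM in KO and 17.5 to 60.1 CPM in WT (0.99 ± 0.29, adjusted p 0.0239), and Rrm2, of ribonucleotide reductase, changed by 0.66 ± 0.20. Cdt1, which licenses replication origins, rose by 0.85 ± 0.26, with its highest level in KO library 1. Cdc20, an activator of the anaphase-promoting complex, was at 23.7 to 40.4 CPM in KO and 11.4 to 28.2 CPM in WT (0.96 ± 0.21), Plk1, the main mitotic kinase, rose by 0.90 ± 0.23, and Cenpa, the histone of centromeres, by 0.74 ± 0.20. Without KO libraries 4 to 6 each of these lists had 1 rise and no fall. The 4 rises among G1/S genes became 0 to 2 without KO library 2, 3 or 4 or WT library 1, 3 or 5 and 7 without WT library 2. Falls among G1/S genes, of which edgeR called 0, numbered 1 to 3 without KO library 1, 2 or 3 or WT library 3, 6 with voom and 2 with DESeq2. The calls of Mcm2 (0.98), Rrm2 (0.76), Cdc20 (0.88), Plk1 (0.66) and Cenpa (0.76) ended without KO libraries 4 to 6.

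Among 58 genes of the centrosome and centriole, with Fgfr1op itself among them, 6 rose and 2 fell (median 0.15), below the background of 14% and 10.5%, and without KO libraries 4 to 6 there were 1 rise and 1 fall. Cep83, of the distal appendages that dock the mother centriole, was at 10.9 to 18.3 CPM in KO and 7.27 to 10.7 CPM in WT (0.75 ± 0.16, adjusted p 0.00651). Plk4, the kinase that starts centriole duplication, rose by 0.73 ± 0.19, and its level in KO library 1 was the highest of the 12. Tubg1, gamma-tubulin, rose by 0.53 ± 0.14. Ninl, a ninein-like protein, rose by 1.60 ± 0.48 and Cep97, a cap of centriole ends, was lower (-0.67 ± 0.21). Of 33 tested genes of the primary cilium and hedgehog signalling, 7 were lower, against 10.5% of all genes, 1 was higher, against 14%, and 25 did not pass (median -0.22), and without KO libraries 4 to 6 none was lower and 1 was higher. Bbs2, of the BBSome coat, was at 4.05 to 7.33 CPM in KO and 7.21 to 13 CPM in WT (-0.94 ± 0.21). The intraflagellar transport genes Ift52 (-0.52 ± 0.12) and Ift80 (-0.96 ± 0.24) were also lower, while the transport motor subunit Kif3a rose by 0.95 ± 0.28. The 6 rises among centrosome genes became 2 to 3 without WT library 3 or 5, 10 without KO library 1 and 13 with voom. The 2 falls among centrosome genes became 0 to 1 without KO library 4, 5 or 6 or WT library 2, 4, 5 or 6 and 5 with voom. The 1 rise among cilium genes became 0 without KO library 4, 5 or 6 or WT library 3, 4 or 5, 2 without KO library 1 or 3 and 3 with voom. The 7 falls among cilium genes became 12 with voom. The calls of Cep83 (0.63), Tubg1 (0.56), Ninl (0.44), Cep97 (-0.38), Bbs2 (-0.74), Ift52 (-0.47), Ift80 (-0.59) and Kif3a (0.10) ended without KO libraries 4 to 6.

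Of 32 members of the ribosome biogenesis list 26 rose and none fell, with a median of 0.62, and no list had a larger share of rises in the fit with all libraries. In the fit without KO libraries 4 to 6, 7 rose and the median was 0.53. Nhp2, of the H/ACA particles that modify ribosomal RNA, was at 189, 232, 225, 303, 277 and 238 CPM in KO libraries 1 to 6 and 111, 136, 97.2, 128, 75.6 and 118 CPM in WT libraries 1 to 6. Every KO library lay above every WT library, and the rise was 1.13 ± 0.16 (adjusted p 0.00134). Gar1, of the same particles, rose by 1.36 ± 0.22 from 1.10 to 2.46 CPM in WT to 3.74 to 6.29 CPM in KO, and by 1.46 without KO libraries 4 to 6. Ddx21, a nucleolar RNA helicase, rose by 1.01 ± 0.16. Bysl, a factor of the small subunit, had the largest rise in the list, 1.82 ± 0.31, with 30.5 to 41.8 CPM in KO libraries 1 to 3, 59.6 to 79.6 CPM in KO libraries 4 to 6 and 7.43 to 22.2 CPM in WT.

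The integrated stress response, in which the transcription factor ATF4 turns on amino acid transport and synthesis, held genes raised in every KO library and genes raised mainly in KO libraries 4 to 6. Of 29 members tested, 17 rose and 3 fell (median 1.11), against 14% and 10.5% of all genes. Without KO libraries 4 to 6, 6 rose and 2 fell (median 0.40), against 2.72% and 2.74%. In the first kind stood Slc7a5, a transporter of large neutral amino acids (ENSMUSG00000040010, chromosome 8, 121881150 to 121907694), at 14.3, 12.2, 10.2, 15.5, 14.7 and 13.5 CPM in KO libraries 1 to 6 and 4.01, 6.18, 4.96, 5.71, 4.42 and 3.91 CPM in WT libraries 1 to 6. Its groups lay well apart (1.46 ± 0.16, adjusted p 0.00085; 1.33 without KO libraries 4 to 6). Phgdh, the first enzyme of serine synthesis, was at 49.1 to 165 CPM in KO and 17.1 to 51.8 CPM in WT (1.88 ± 0.30), and 5 of 6 KO libraries exceeded every WT library. Of the second kind, Slc7a11, the cystine transporter, was at 1.40 to 2.20 CPM in KO libraries 1 to 3, 74.8 to 94.0 CPM in KO libraries 4 to 6 and 0.998 to 2.11 CPM in WT (5.03 ± 1.14; 0.39 without KO libraries 4 to 6, adjusted p 0.462). Chac1, which degrades glutathione, was at 2.62 to 4.23, 29.6 to 32.5 and 0.604 to 4.17 CPM in the same order (3.10 ± 0.79; adjusted p 0.398 without KO libraries 4 to 6). Asns, asparagine synthetase, was at 137 to 274, 518 to 642 and 148 to 204 CPM (1.16 ± 0.31; adjusted p 0.399 without them), and Trib3, a pseudokinase, rose by 2.73 ± 0.59. Atf4 itself was at 141 to 146, 267 to 275 and 95.6 to 117 CPM (0.94 ± 0.20), with every KO library above every WT library. The separate list of the unfolded protein response of the endoplasmic reticulum had 2 rises among 30 members and no fall (median 0.086), and no call without KO libraries 4 to 6. Falls among unfolded protein response genes, of which edgeR called 0, numbered 1 to 2 without KO library 1, 2 or 3 or WT library 4, 4 with voom and 1 with DESeq2. The calls of Trib3 (0.82) and Atf4 (0.41) ended without KO libraries 4 to 6.

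The 250 bases before the start of these genes were read from RefSeq (GRCm38.p6) for the composite element that ATF4 binds with a C/EBP partner, spelled TGATGNAA and searched on both strands. Of the 17 that rose, 16 had a promoter in the table and 4 of them held the element, or 25%, as did 4 of the 10 listed genes with a promoter that did not rise, or 40%, and 2.47% of 11033 tested genes with a promoter. Rising members of the list thus held the element no more often than the others. The windows of Asns (chr6:7693210-7693459, minus strand), Chac1 (chr2:119350992-119351241, plus strand) and Slc7a11 (chr3:50443614-50443863, minus strand) are shown 5′ to 3′ on the gene's strand, with the element in capitals, because the levels of these 3 genes in KO libraries 4 to 6 all exceeded those of the other 9 libraries. A match of letters is not a binding site.
Asns: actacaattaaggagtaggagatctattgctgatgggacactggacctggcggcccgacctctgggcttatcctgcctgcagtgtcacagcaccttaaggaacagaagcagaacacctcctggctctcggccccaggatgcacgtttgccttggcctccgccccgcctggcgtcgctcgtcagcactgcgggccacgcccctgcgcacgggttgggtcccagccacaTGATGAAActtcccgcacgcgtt
Chac1: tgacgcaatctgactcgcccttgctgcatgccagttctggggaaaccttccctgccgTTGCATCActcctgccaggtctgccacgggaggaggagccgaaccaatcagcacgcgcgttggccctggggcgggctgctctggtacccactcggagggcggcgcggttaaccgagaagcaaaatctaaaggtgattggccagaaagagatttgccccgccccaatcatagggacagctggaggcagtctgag
Slc7a11: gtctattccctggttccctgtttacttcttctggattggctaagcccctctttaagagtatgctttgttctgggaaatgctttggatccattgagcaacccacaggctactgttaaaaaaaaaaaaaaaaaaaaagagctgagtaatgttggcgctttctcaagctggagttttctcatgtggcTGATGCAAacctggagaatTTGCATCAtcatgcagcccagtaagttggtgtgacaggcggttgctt
The nearest match lay 23 bases before the start in Asns, 193 in Chac1 and 47 in Slc7a11, which had 2 matches.

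Genes of the fetal-like repair state and targets of YAP had the highest median fold change of the lists in the fit with all libraries, and their level differed widely between the KO libraries. Of 39 members found, 32 were tested, and 21 rose and none fell, with a median of 2.45. With KO libraries 4 to 6 left out, 7 rose, none fell, and the median was 0.57. The summed level was 8562 to 9798 CPM in KO libraries 1 to 3, 19710 to 22998 CPM in KO libraries 4 to 6 and 5177 to 9039 CPM in WT. Il1rn, the antagonist of the interleukin-1 receptor (ENSMUSG00000026981, chromosome 2, 24336853 to 24351494), was at 8.65, 6.99, 10.4, 288, 308 and 192 CPM in KO libraries 1 to 6 and 0.903, 0.669, 0.622, 1.04, 1.35 and 0.499 CPM in WT libraries 1 to 6. All KO libraries were above WT, in 2 separate ranges. The log2 fold change was 7.34 ± 1.17 (adjusted p 0.00251), and 3.38 without KO libraries 4 to 6 (adjusted p 1.06e-05). Plaur, the urokinase receptor, showed the same 2 ranges, 13.2 to 15.8 CPM in KO libraries 1 to 3 and 217 to 338 CPM in KO libraries 4 to 6, above 2.00 to 3.62 CPM in WT (5.70 ± 0.95). Its protease counterpart Plat, tissue plasminogen activator, which is not a member of the list, was at 2.66 to 4.13, 152 to 318 and 0.164 to 0.853 CPM (7.74 ± 1.42; 2.62 without KO libraries 4 to 6). Ereg and Areg, ligands of the EGF receptor, were at 5.13 to 6.81 and 4.90 to 8.42 CPM in KO libraries 1 to 3, 20.1 to 29.0 and 69.2 to 96.8 CPM in KO libraries 4 to 6 and 0.890 to 2.92 and 0.185 to 3.02 CPM in WT. Ereg rose by 3.01 ± 0.48 and Areg by 5.08 ± 0.92. Cxcl16, a membrane-bound chemokine, rose by 2.42 ± 0.39. Sprr1a, a cornified envelope protein of stressed epithelia, was at 0.873 to 4.02, 114 to 145 and 0.0742 to 0.710 CPM (7.65 ± 1.45; 2.72 without KO libraries 4 to 6).

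For other markers of the state the levels in KO libraries 1 to 3 were far below those in KO libraries 4 to 6. Ly6a, also called Sca-1 and the usual marker of fetal-like crypt cells, was at 5.04, 17.0, 2.16, 804, 1311 and 1132 CPM in KO libraries 1 to 6 and 3.66, 4.63, 1.80, 2.17, 3.68 and 2.15 CPM in WT libraries 1 to 6. It rose by 7.50 ± 1.57 with all libraries (adjusted p 0.00698) and had an adjusted p of 0.126 without KO libraries 4 to 6. Anxa1, an annexin of wound repair, was at 0.630 to 1.85 CPM in KO libraries 1 to 3, 344 to 617 CPM in KO libraries 4 to 6 and 0.433 to 6.41 CPM in WT. Its log2 fold change of 6.81 ± 1.79 (adjusted p 0.0182) became -0.84 without KO libraries 4 to 6 (adjusted p 0.609). Clu, the chaperone that marks revival stem cells, was at 6.33 to 10.0, 187 to 439 and 1.96 to 10.9 CPM (5.11 ± 1.14; 1.00 without those libraries, adjusted p 0.23). F3, tissue factor, was at 6.12 to 7.43, 87.3 to 198 and 1.15 to 7.79 CPM (4.60 ± 1.03). The call of F3 (1.03) ended without KO libraries 4 to 6.

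The same promoter window was read for the site of AP-1, the dimer of Fos and Jun proteins, spelled TGANTCA on both strands. Of the 21 repair genes that rose, 12 had a promoter in the table and 7 of these held a site (Anxa2, Emp1, F3, Il1rn, Plaur, Sprr1a and Tinagl1), or 58.3%, against 2 of 10 members with a promoter that did not rise, or 20%, and 5.95% of 11033 tested genes with a promoter. In the joint list of immediate early and heat shock genes, none of 10 that rose and had a promoter held it. The same was true of the 14 with a promoter that did not rise. Windows are printed for the 4 genes whose values are given above, with sites in capitals: F3 (chr3:121723287-121723536, plus strand), Il1rn (chr2:24336610-24336859, plus strand), Plaur (chr7:24462233-24462482, plus strand) and Sprr1a (chr3:92485882-92486131, minus strand). The members and motif were chosen with the values known, so the shares are a description.
F3: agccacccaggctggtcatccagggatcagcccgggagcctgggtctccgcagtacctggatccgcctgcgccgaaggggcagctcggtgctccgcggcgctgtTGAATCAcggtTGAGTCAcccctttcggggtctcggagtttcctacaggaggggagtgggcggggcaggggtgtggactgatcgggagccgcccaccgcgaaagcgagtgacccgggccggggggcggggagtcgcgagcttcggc
Il1rn: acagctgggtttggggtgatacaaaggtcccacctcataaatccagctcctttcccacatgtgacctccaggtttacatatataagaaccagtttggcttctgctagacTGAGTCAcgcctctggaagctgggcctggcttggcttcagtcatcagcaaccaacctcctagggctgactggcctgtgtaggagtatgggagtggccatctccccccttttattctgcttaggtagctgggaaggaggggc
Plaur: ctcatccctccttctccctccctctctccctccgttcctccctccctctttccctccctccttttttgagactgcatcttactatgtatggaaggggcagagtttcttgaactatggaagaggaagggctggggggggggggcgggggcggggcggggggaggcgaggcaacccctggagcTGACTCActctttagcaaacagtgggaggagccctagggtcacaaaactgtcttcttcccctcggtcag
Sprr1a: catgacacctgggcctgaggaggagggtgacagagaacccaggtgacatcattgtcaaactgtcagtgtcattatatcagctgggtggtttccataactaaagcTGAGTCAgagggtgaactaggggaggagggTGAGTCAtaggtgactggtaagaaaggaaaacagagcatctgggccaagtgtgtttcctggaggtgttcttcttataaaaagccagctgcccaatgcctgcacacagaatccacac
F3 and Sprr1a had 2 sites each, the nearest of them 135 and 116 bases before the start, and Il1rn and Plaur 1 each, at 141 and 69 bases.

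Immediate early genes, which respond to growth factors and stress within minutes and include subunits of AP-1, were listed with heat shock genes, and 14 of 30 rose and none fell (median 0.84). In the fit without KO libraries 4 to 6, 6 rose and the median was 0.53. Egr1, a zinc finger factor, had 7.67, 12.6 and 21.8 CPM as the lowest, median and highest level in KO and 2.37, 3.57 and 4.56 CPM in WT (1.99 ± 0.27, adjusted p 0.00118). Dusp1, a phosphatase of MAP kinases, was at 1.43 to 7.84 CPM in KO and 0.344 to 1.05 CPM in WT (2.80 ± 0.42). Hsp90aa1, the stress-inducible Hsp90 chaperone, was at 336 to 437 CPM in KO and 186 to 256 CPM in WT, with similar values in all KO libraries (0.86 ± 0.11). Of the AP-1 subunits, Fosl1 was at 0.142 to 0.362 CPM in KO libraries 1 to 3, 3.47 to 8.48 CPM in KO libraries 4 to 6 and 0.0185 to 0.160 CPM in WT (4.90 ± 1.05), and Jun rose by 1.20 ± 0.21. Klf6, a zinc finger factor that the list of villus tip genes shares, rose by 1.16 ± 0.27, and its adjusted p was 0.144 without KO libraries 4 to 6. The call of Fosl1 (1.43) ended without KO libraries 4 to 6.

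**Figure D3:**
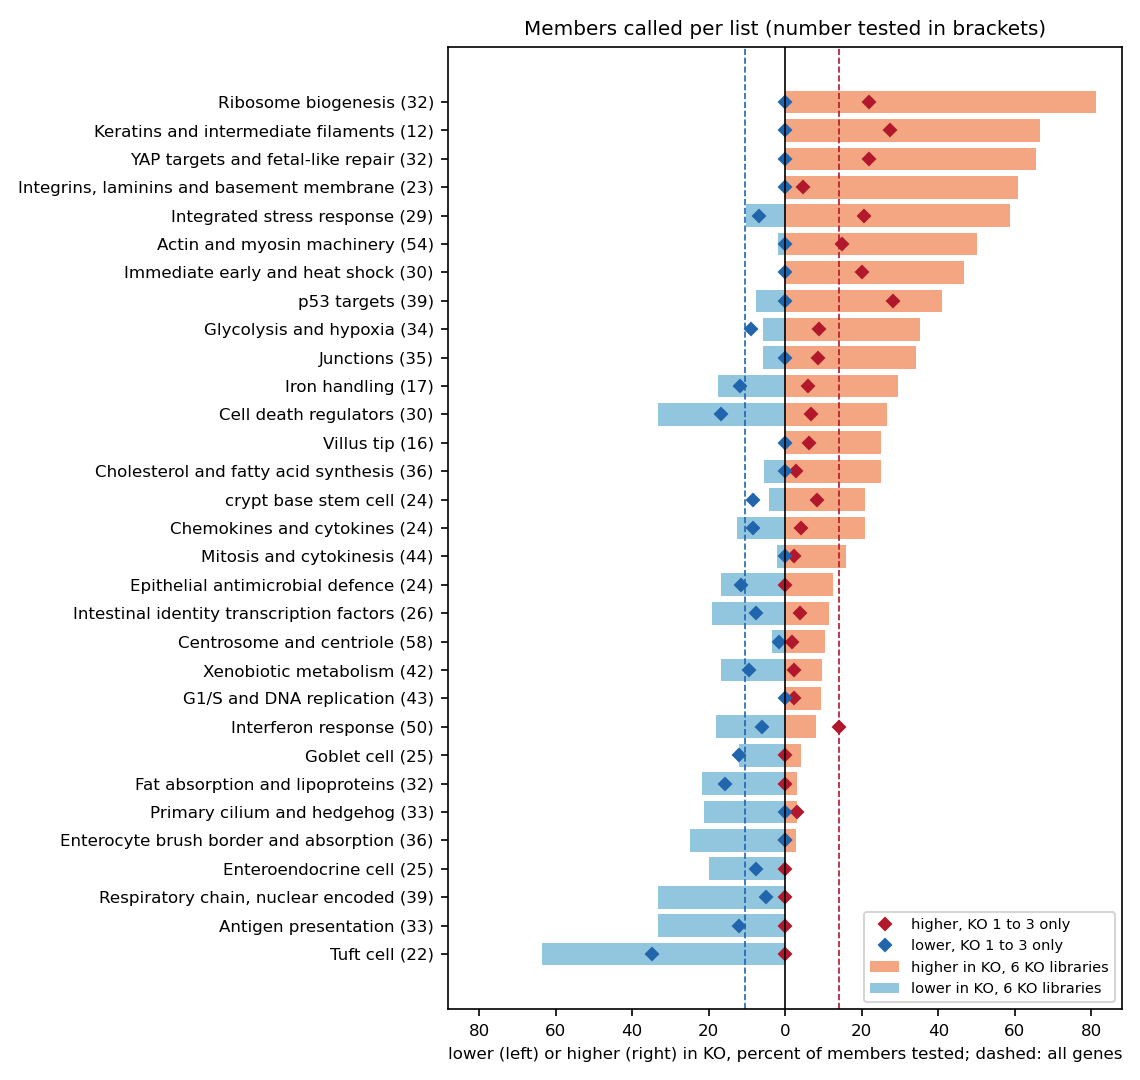
Share of the tested members of each list that were higher (right) or lower (left) in KO at an adjusted p below 0.05, with 6 KO libraries (bars) and with KO libraries 1 to 3 only (diamonds). Lists with at least 3 calls are shown, numbers in brackets are the members tested, and the dashed lines mark 14% higher and 10.5% lower over all genes. Ribosome biogenesis, keratins and fetal-like repair have the longest bars to the right and tuft cell genes the longest to the left.

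With all libraries, genes of the actin cytoskeleton, keratins, junctions and the basement membrane had larger shares of rises than the 14% of all genes. Of 54 genes of the actin and myosin machinery, 27 rose and 1 fell (median 0.64). Without KO libraries 4 to 6, 8 rose and none fell (median 0.40), against 2.72% and 2.74% of all genes. Tagln2, an actin-binding protein of the calponin family (ENSMUSG00000026547, chromosome 1, 172500047 to 172507380), was at 739, 813, 973, 1405, 1283 and 1036 CPM in KO libraries 1 to 6 and 555, 399, 452, 491, 560.5 and 467 CPM in WT libraries 1 to 6. The groups were well separated, and the rise was 1.10 ± 0.17 (adjusted p 0.00164; 0.79 without KO libraries 4 to 6, adjusted p 0.0139). Rhoc, a small GTPase of contractility, was at 102 to 162 CPM in KO libraries 1 to 3, 338 to 379 CPM in KO libraries 4 to 6 and 31.5 to 86.9 CPM in WT (2.10 ± 0.34). Cnn2, a calponin, rose by 2.00 ± 0.34. Pdlim7, a scaffold of actin fibres, had the largest rise of the list, 5.10 ± 1.08, with 1.89 to 3.49, 74.7 to 112 and 0.695 to 1.82 CPM in the same order, and did not pass without KO libraries 4 to 6 (adjusted p 0.0746). Myh9, the heavy chain of non-muscle myosin, rose by 1.01 ± 0.18, Zyx, a focal adhesion protein, by 1.01 ± 0.20, Flna, filamin A, by 3.16 ± 0.64 and Capn2, a calpain protease, by 3.59 ± 0.70. The call of Zyx (0.87) ended without KO libraries 4 to 6.

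Of 12 keratins and other intermediate filament genes tested, 8 rose and none fell (median 1.03), against 14% and 10.5% of all genes. There were 3 rises of 11 tested without KO libraries 4 to 6, against 2.72% of all genes. Lmna, which encodes lamins A and C, was at 125 to 263 CPM in KO and 71.8 to 108 CPM in WT (1.17 ± 0.19). Krt18 and its partner Krt8, the keratins of simple epithelia, rose by 1.78 ± 0.32 and 1.04 ± 0.23, and Krt18 was at 601 to 712 CPM in KO libraries 1 to 3, 1589.5 to 2161 CPM in KO libraries 4 to 6 and 249.8 to 427 CPM in WT. Krt7, a keratin that the adult small intestine expresses at a low level, was at 53.6 to 131, 518 to 818 and 19.2 to 114 CPM (2.49 ± 0.73). Among 35 junction genes, 12 rose and 2 fell (median 0.40), with 3 rises and no fall without KO libraries 4 to 6. Ppl, periplakin of desmosomes, rose by 2.01 ± 0.33, from 1.28 to 3.70 CPM in WT to 4.17 to 13.1 CPM in KO. Cldn15, which forms sodium channels between villus cells, was lower, with 318 to 621 CPM in KO and 702 to 1070.0 CPM in WT (-0.91 ± 0.17). Other claudins rose, Cldn2 by 1.23 ± 0.29 and Cldn4 by 2.61 ± 0.59. The 8 rises among keratins became 4 to 5 without WT library 1, 4 or 5. The calls of Krt8 (0.58), Krt7 (0.61), Cldn15 (-0.63), Cldn2 (0.58) and Cldn4 (0.97) ended without KO libraries 4 to 6.

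Integrins, laminins and other basement membrane genes had 14 rises and no fall among 23 tested (median 0.57), against 14% and 10.5% of all genes. Only 1 of 22 rose without KO libraries 4 to 6, against 2.72% of all genes. Lamb3, a chain of laminin 332, was at 10.9, 31.9 and 73.7 CPM as the lowest, median and highest level in KO and 2.67, 4.18 and 5.92 CPM in WT (3.07 ± 0.53, adjusted p 0.00317). Lamc1, the gamma 1 chain, rose by 1.53 ± 0.29, and Itga5, which pairs with integrin beta 1 to bind fibronectin, by 2.19 ± 0.42. Nid1, nidogen, was at 0.0635 to 0.220 CPM in KO libraries 1 to 3, 0.435 to 1.66 CPM in KO libraries 4 to 6 and 0.0371 to 0.147 CPM in WT (2.81 ± 0.71). Nid1 is also made by stromal cells. The fibroblast list summed to 6.89 to 12.7 CPM in KO libraries 1 to 3, 18.8 to 134 CPM in KO libraries 4 to 6 and 8.79 to 73.0 CPM in WT, and the part of such cells in the rise of Nid1 was not tested. Nid1 was too low to be tested without KO libraries 4 to 6. The 14 rises among basement membrane genes became 8 to 9 without KO library 4, 5 or 6. The calls of Lamc1 (0.83) and Itga5 (1.43) ended without KO libraries 4 to 6.

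Most stem cell genes did not pass. Of 24 genes of the crypt base stem cell, 5 rose, 1 fell and 18 did not pass (median -0.33). Over all genes 14% rose and 10.5% fell. Without KO libraries 4 to 6, 2 rose and 2 fell (median 0.0070), against 2.72% and 2.74% of all genes. Igfbp4, a secreted binder of insulin-like growth factors, was at 7.73, 5.12, 3.92, 7.35, 10.0 and 8.42 CPM in KO libraries 1 to 6 and 1.64, 2.75, 2.09, 2.60, 1.19 and 3.12 CPM in WT libraries 1 to 6 (1.66 ± 0.27, adjusted p 0.00217). Its groups did not overlap, and KO library 3 was the lowest of the KO libraries. Cd44, the hyaluronan receptor, rose by 2.20 ± 0.43, with 69.1 to 98.9 CPM in KO libraries 1 to 3, 226 to 325 CPM in KO libraries 4 to 6 and 19.3 to 59.2 CPM in WT. Ephb2, which positions cells along the crypt, rose by 0.81 ± 0.20. Gkn3, a gastrokine found in crypt base cells, fell from 5.27 to 9.97 CPM in WT to 1.18 to 2.09 CPM in KO libraries 1 to 3 and to 0 to 0.174 CPM in KO libraries 4 to 6 (-3.15 ± 0.86; -2.21 without KO libraries 4 to 6). The usual markers did not pass. Lgr5, the R-spondin receptor (ENSMUSG00000020140, chromosome 10, 115450311 to 115587780), was at 8.64, 12.7, 9.08, 2.45, 3.37 and 2.25 CPM in KO libraries 1 to 6 and 6.23, 31.0, 16.0, 20.2, 8.10 and 16.5 CPM in WT libraries 1 to 6 (-1.35 ± 0.50, adjusted p 0.0663). Its KO libraries 4 to 6 lay below every other library, and KO libraries 1 to 3 lay within WT. Olfm4, a secreted olfactomedin (ENSMUSG00000022026, chromosome 14, 79984081 to 80023139), was at 428, 914, 808, 22.4, 17.0 and 8.37 CPM in KO and 922, 1998, 817, 1876, 1176 and 1532 CPM in WT (-1.92 ± 1.00, adjusted p 0.179). KO libraries 4 to 6 were again the 3 lowest, and the fold change without them was -0.95 (adjusted p 0.096). Of 17 targets of Wnt signalling tested, none passed in either direction (median -0.12). Of 18 genes of Notch signalling and secretory fate, 2 rose and none fell, with no call without KO libraries 4 to 6. The 5 rises among stem cell genes became 3 without KO library 5 or 6 or WT library 1, 3 or 5. The 1 fall among stem cell genes became 2 to 4 without KO library 2, 3 or 5 or WT library 1, 13 with voom and 4 with DESeq2. Falls among Wnt targets, of which edgeR called 0, numbered 1 without KO library 1 and 4 with voom. Falls among Notch genes, of which edgeR called 0, numbered 1 without KO library 3, 3 with voom and 1 with DESeq2. The call of Ephb2 (0.77) ended without KO libraries 4 to 6.

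Genes of tuft cells, the chemosensory cells that answer parasites, were lower in KO, and with all libraries edgeR called a larger share of falls here than in any other list. With voom 19 of 22 were lower, a smaller share than the 22 of 24 Paneth cell genes. Of 22 tested tuft cell genes, 14 were lower and none was higher (median -1.47), and 8 of 23 were lower without KO libraries 4 to 6 (median -0.95). Il17rb, the receptor of interleukin-25, was at 1.13, 1.13, 1.43, 1.27, 0.513 and 1.42 CPM in KO libraries 1 to 6 and 3.72, 2.08, 3.06, 3.13, 3.66 and 3.15 CPM in WT libraries 1 to 6 (-1.44 ± 0.25, adjusted p 0.00252). All 6 KO libraries lay below all WT libraries. Alox5 and Alox5ap, which make leukotrienes, changed by -2.09 ± 0.45 and -1.54 ± 0.34. Dclk1, a kinase used as a tuft cell marker, was at 2.40 to 3.42 CPM in KO libraries 1 to 3, 0.239 to 0.769 CPM in KO libraries 4 to 6 and 3.72 to 8.12 CPM in WT (-1.79 ± 0.53). Pou2f3, the factor that specifies the lineage, was at 0.960 to 1.54, 0.130 to 0.299 and 1.39 to 3.26 CPM (-1.84 ± 0.50). The summed level of the list was 202 to 355 CPM in KO and 224 to 355 CPM in WT, so the sums of the list overlapped between the genotypes. The 14 falls among tuft cell genes became 8 without KO library 4 or WT library 5. The call of Pou2f3 (-1.09) ended without KO libraries 4 to 6.

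The other secretory lineages had fewer calls in edgeR. None of 24 Paneth cell genes was higher and 2 were lower (median -0.92), and 1 was lower without KO libraries 4 to 6 (median -0.22), but their summed level was 51710 to 68730 CPM in KO libraries 1 to 3, 10469 to 17030 CPM in KO libraries 4 to 6 and 46048 to 115450 CPM in WT. Mptx1, a pentraxin of Paneth cells, was at 2.57 to 14.4 CPM in KO and 17.1 to 39.0 CPM in WT (-1.57 ± 0.42), and Fgfbp1, which carries fibroblast growth factors, was at 104 to 129.5, 23.3 to 35.4 and 158 to 221 CPM in KO libraries 1 to 3, KO libraries 4 to 6 and WT (-1.35 ± 0.42). Lyz1, Paneth cell lysozyme, did not pass (-0.98 ± 0.38, adjusted p 0.0747), with 6997 to 10054, 2332 to 3586 and 6395 to 16682 CPM in that order. Of 25 goblet cell genes, 3 were lower and 1 was higher (median -0.37), and 3 were lower without KO libraries 4 to 6. With all libraries, the goblet shares of falls and rises lie near or below the 10.5% and 14% over all genes. Without KO libraries 4 to 6, the 3 falls of 25 tested stand against 2.74% of all genes. Rep15, a Rab15 effector, was at 15.8 to 32.6 CPM in KO and 38.0 to 56.1 CPM in WT (-0.95 ± 0.18), Ccl6, a chemokine, changed by -1.89 ± 0.54 and Klk1, a kallikrein protease, by -1.49 ± 0.47, while Spdef, the factor that drives goblet and Paneth maturation, rose by 1.13 ± 0.36. Of 25 enteroendocrine genes, 5 were lower and none was higher (median -0.76), and 2 were lower without KO libraries 4 to 6 (median -0.060). Pcsk1, which processes prohormones, was at 6.67 to 12.1 CPM in KO and 14.5 to 18.3 CPM in WT (-0.89 ± 0.16). The endocrine transcription factors Rfx6 (-1.24 ± 0.26) and Isl1 (-0.88 ± 0.24) and the peptide Ucn3 (-2.11 ± 0.61) were also lower. The 2 falls among Paneth cell genes became 1 without KO library 4 or 5 or WT library 1, 3, 4, 5 or 6, 8 without KO library 3, 22 with voom and 6 with DESeq2. The 3 falls among goblet cell genes became 1 without KO library 5 or WT library 4, 5 to 8 without KO library 1 or 3, 11 with voom and 5 with DESeq2. The 5 falls among enteroendocrine genes became 10 without KO library 3, 20 with voom and 8 with DESeq2. The calls of Mptx1 (-0.92), Spdef (0.43), Rfx6 (-0.93) and Isl1 (-0.50) ended without KO libraries 4 to 6.

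Enterocyte genes were lower in KO libraries 4 to 6. Of 36 genes of the brush border and absorption, 9 were lower and 1 was higher (median -0.82), against 10.5% and 14% of all genes. None of these genes passed without KO libraries 4 to 6 (median -0.38). Their summed level was 23259 to 35088 CPM in KO libraries 1 to 3, 8158 to 14134 CPM in KO libraries 4 to 6 and 21554 to 49649 CPM in WT. Sis, sucrase-isomaltase, was at 143 to 433 CPM in KO and 357 to 929 CPM in WT (-1.09 ± 0.26), Myo1a, a brush border myosin, changed by -0.71 ± 0.17 and Ush1c, harmonin of the microvillus tips, by -0.57 ± 0.13. Slc2a5, the fructose transporter, was at 84.9 to 154, 12.8 to 34.9 and 138 to 311 CPM in KO libraries 1 to 3, KO libraries 4 to 6 and WT (-1.67 ± 0.52). Lct, lactase, had a wide spread, 212, 79.8, 144, 0.948, 0.0197 and 0.315 CPM in KO libraries 1 to 6 and 266, 225, 230.2, 206, 442 and 339.7 CPM in WT libraries 1 to 6. KO libraries 4 to 6 were all under 1 CPM, and the gene did not pass (-1.97 ± 1.34, adjusted p 0.303). Among 16 genes of the villus tip, 4 rose and none fell, Cdkn1a and Klf6 among them, with 1 rise without KO libraries 4 to 6. Their summed level lay the other way, at 8247 to 16663 CPM in KO libraries 1 to 3, 3760 to 6873 CPM in KO libraries 4 to 6 and 6810 to 16834 CPM in WT. The nuclear RNA Neat1 was at 150.2 to 230.4, 479.7 to 1386 and 128 to 220.4 CPM (1.67 ± 0.47). The 9 falls among brush border genes became 3 to 5 without KO library 4 or 6 or WT library 1, 5 or 6, 14 without KO library 3, 28 with voom and 16 with DESeq2. The 4 rises among villus tip genes became 2 without WT library 4 or 5. Falls among villus tip genes, of which edgeR called 0, numbered 1 without KO library 1 and 5 with voom. The calls of Sis (-0.78), Myo1a (-0.56), Ush1c (-0.40), Slc2a5 (-0.96) and Neat1 (0.39) ended without KO libraries 4 to 6.

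Genes of fat absorption and lipoproteins had 7 falls and 1 rise among 32 (median -0.58), against 10.5% and 14% of all genes. They had 5 falls without KO libraries 4 to 6, against 2.74% of all genes. Plin2, the coat of lipid droplets, was at 80.5, 80.1, 108, 90.0, 96.7 and 78.4 CPM in KO libraries 1 to 6 and 190.0, 125, 173, 165, 204 and 135 CPM in WT libraries 1 to 6, without overlap (-0.90 ± 0.14, adjusted p 0.00203; -0.88 without KO libraries 4 to 6). Cd36, a fatty acid receptor, was at 0.429 to 7.11 CPM in KO and 15.2 to 69.4 CPM in WT (-3.19 ± 0.60), and Ehhadh, of peroxisomal oxidation, changed by -1.44 ± 0.27. Ppara, a nuclear receptor of fatty acids, changed by -1.56 ± 0.39. Cyp4a10, a fatty acid hydroxylase, was called lower (-4.32 ± 1.17), at 0 to 0.413 CPM in KO and 0.0659 to 4.43 CPM in WT. Its levels overlapped between the genotypes and were too near 0 for a fold change to be read. Of 19 genes of the proximal small intestine, 1 rose and 1 fell, with 2 falls and no rise without KO libraries 4 to 6. Of 20 genes of the distal small intestine, 1 rose and none fell, with or without KO libraries 4 to 6. That gene was Slc10a2, the bile acid transporter of the ileum (ENSMUSG00000023073, chromosome 8, 5083219 to 5105351), at 11.2 to 19.0 CPM in KO libraries 1 to 3, 87.7 to 115 CPM in KO libraries 4 to 6 and 1.03 to 7.29 CPM in WT (4.02 ± 0.74; 2.08 without KO libraries 4 to 6). From where along the intestine each piece was taken is not stated in these sources. The 7 falls among fat absorption genes became 13 without KO library 1 or 3, 22 with voom and 12 with DESeq2. The 1 rise among proximal genes became 0 without WT library 5, 2 without KO library 1, 2 or 3 or WT library 1, 3 with voom and 2 with DESeq2. The 1 fall among proximal genes became 2 to 3 without KO library 1 or 3 or WT library 4, 11 with voom and 3 with DESeq2. Falls among distal genes, of which edgeR called 0, numbered 1 to 3 without KO library 1 or 3 and 11 with voom. The call of Cyp4a10 (-3.33) ended without KO libraries 4 to 6.

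Iron genes had 5 rises and 3 falls among 17, against 14% and 10.5% of all genes. They had 1 rise and 2 falls without KO libraries 4 to 6, against 2.72% and 2.74%. Ftl1, ferritin light chain, was at 1485 to 1651 CPM in KO libraries 1 to 3, 3103 to 3372 CPM in KO libraries 4 to 6 and 779 to 1292 CPM in WT (1.26 ± 0.23). Aco1, which doubles as an iron sensor, was lower (-0.77 ± 0.14), as was Tfrc, the transferrin receptor (-0.75 ± 0.15). Hmox1, which degrades heme, was at 1.82 to 2.03, 25.1 to 28.6 and 0.753 to 2.00 CPM (3.33 ± 0.80; adjusted p 0.463 without KO libraries 4 to 6), and the hypoxia factors Hif1a and Epas1 rose by 1.29 ± 0.25 and 1.59 ± 0.44. Of 42 genes of xenobiotic metabolism, 4 rose and 7 fell (median -0.93), against the same 14% and 10.5%. Without KO libraries 4 to 6, 1 rose and 4 fell (median -0.44), against 2.72% and 2.74%. Ugt1a1, which conjugates bilirubin, was at 1.40 to 16.2 CPM in KO and 30.8 to 58.7 CPM in WT (-2.61 ± 0.55), the cytochrome Cyp2j6 changed by -0.95 ± 0.20, the efflux pump Abcg2 by -1.29 ± 0.30 and the alcohol dehydrogenase Adh4 by -2.68 ± 0.83. The 4 rises were glutathione transferases of the alpha class, whose sequences are close, so that reads may be split among them, and Gsta1 rose by 1.92 ± 0.53. The 5 rises among iron genes became 3 without WT library 5. The 4 rises among xenobiotic genes became 2 without WT library 5. The 7 falls among xenobiotic genes became 14 without KO library 3, 25 with voom and 12 with DESeq2. The calls of Tfrc (-0.62), Hif1a (0.84), Epas1 (0.33) and Gsta1 (1.18) ended without KO libraries 4 to 6.

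Of 26 transcription factors of intestinal identity, 3 rose and 5 fell (median -0.090), against 14% and 10.5% of all genes. Without KO libraries 4 to 6, 1 rose and 2 fell, against 2.72% and 2.74%. Hnf4g, of the enterocyte programme, was at 171 to 356 CPM in KO and 331 to 640.2 CPM in WT (-0.87 ± 0.20). Nr5a2, a nuclear receptor of crypts, changed by -1.0 ± 0.23 and Vdr, the vitamin D receptor, by -1.58 ± 0.45. Foxa1, a pioneer factor, rose by 1.59 ± 0.29 from 1.49 to 2.78 CPM in WT to 3.34 to 9.86 CPM in KO. The 5 falls among identity factors became 3 without KO library 4 and 11 with voom. The calls of Hnf4g (-0.56) and Nr5a2 (-0.59) ended without KO libraries 4 to 6.

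Regulators of cell death were called in both directions, 8 higher and 10 lower among 30 tested, against 14% and 10.5% of all genes. The numbers were 2 and 5 without KO libraries 4 to 6, against 2.72% and 2.74%. The 4 largest falls among called genes above the expression minimum whose groups did not overlap were gasdermin C genes, which form pores in the membrane of dying or secreting epithelial cells. Gsdmc4 (ENSMUSG00000055748, chromosome 15, 63891264 to 63912297) was at 28.5, 18.5, 13.9, 0.273, 0 and 0.0435 CPM in KO libraries 1 to 6 and 143, 116, 95.4, 308, 640.5 and 199.6 CPM in WT libraries 1 to 6 (-4.62 ± 1.39, adjusted p 0.0316). All KO libraries were lower than all WT libraries, and KO libraries 4 to 6 were at or near 0. Without those the fold change was -3.62 (adjusted p 0.0305). Gsdmc2 was at 7.92 to 14.9, 0 to 0.208 and 51.0 to 277 CPM in KO libraries 1 to 3, KO libraries 4 to 6 and WT, and Gsdmc3 and Gsdmcl2 followed the same order. The 4 genes are neighbours with near-identical sequences, so reads may be split among them and they are not 4 separate results. Casp1, of inflammasomes, was at 100.4 to 137 CPM in KO and 173 to 277 CPM in WT (-0.90 ± 0.15), and Casp6 changed by -1.73 ± 0.34. Ripk3, the kinase of necroptosis, rose by 1.23 ± 0.21, with 157 to 254 CPM in KO libraries 1 to 3, 372 to 427 CPM in KO libraries 4 to 6 and 107 to 155 CPM in WT. Bax and Bbc3, given above, were also in this list. The 8 rises among cell death genes became 3 to 5 without KO library 4, 5 or 6 or WT library 1, 3, 4, 5 or 6. The 10 falls among cell death genes became 6 without WT library 5.

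Genes of antigen presentation were called in 1 direction. Of 33 tested, 11 were lower and none was higher (median -0.76), against 10.5% and 14% of all genes. The falls numbered 4 without KO libraries 4 to 6 (median -0.38), against 2.74% of all genes. Erap1, which trims peptides, was at 78.6, 135, 111, 101, 105 and 106 CPM in KO libraries 1 to 6 and 140.4, 198, 148, 179, 245 and 190.1 CPM in WT libraries 1 to 6 (-0.79 ± 0.16, adjusted p 0.00482). The groups did not overlap, although the highest KO library came close to the lowest WT library. The immunoproteasome subunit Psmb10 changed by -0.90 ± 0.21, its relative Psmb9 by -1.78 ± 0.47 and the proteasome activator Psme1 by -0.59 ± 0.14. Ciita, the master regulator of class II genes, changed by -1.52 ± 0.43, H2-DMa, which loads class II molecules, by -2.04 ± 0.53 and Cd74, the invariant chain, by -1.85 ± 0.57. Epithelium expresses class II genes, as do B cells and myeloid cells. The myeloid list summed to 162 to 331 CPM in KO and 256 to 502 CPM in WT, with Ptprc, the leukocyte antigen, at 3.40 to 11.2 CPM and 5.30 to 10.3 CPM. Of the 29 myeloid genes found, 25 had the higher mean in KO, so most members went the opposite way to the sum. The B and plasma cell list summed to 84.3 to 460 CPM in KO and 73.2 to 288 CPM in WT, and the part of these cells in the falls was not tested. The 11 falls among antigen presentation genes became 18 without KO library 1 and 23 with voom. The calls of Psmb10 (-0.54), Psme1 (-0.38), Ciita (-1.28) and Cd74 (-1.16) ended without KO libraries 4 to 6.

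Interferon response genes had 9 falls and 4 rises among 50 (median -0.29), against 10.5% and 14% of all genes. They had 3 falls and 7 rises without KO libraries 4 to 6 (median 0.10), against 2.74% and 2.72%. Irgm1, an interferon-induced GTPase, was at 34.8 to 67.5 CPM in KO and 76.3 to 115 CPM in WT (-0.98 ± 0.18), Ifi47, of the same family, changed by -1.41 ± 0.28, and Irf1, a factor upstream of them, by -0.83 ± 0.18. These 3 also passed without KO libraries 4 to 6 (adjusted p 0.0408, 0.0359 and 0.0336). Iigp1, a further GTPase, changed by -2.40 ± 0.73. Of 24 genes of epithelial antimicrobial defence, 3 rose and 4 fell, against 14% and 10.5% of all genes. There were 3 falls and no rise without KO libraries 4 to 6, against 2.74% and 2.72%. Reg1 and Reg3a, secreted lectins of the Reg family with close relatives, were at 6.62 to 30.1 and 6.02 to 32.8 CPM in KO and 62.4 to 261 and 46.7 to 194 CPM in WT (-3.19 ± 0.48 and -2.60 ± 0.51). Pigr, which carries IgA across the epithelium (ENSMUSG00000026417, chromosome 1, 130826684 to 130852249), was at 2123 to 2615 CPM in KO libraries 1 to 3, 435 to 635 CPM in KO libraries 4 to 6 and 3750.4 to 7046 CPM in WT (-1.79 ± 0.43; -1.10 without KO libraries 4 to 6, adjusted p 0.00951). The hydrogen peroxide source Duox2 rose by 1.53 ± 0.39 and the siderophore binder Lcn2 changed by -1.52 ± 0.38. Among 24 chemokines and cytokines, 5 rose and 3 fell, against 14% and 10.5% of all genes. This list had 1 rise and 2 falls without KO libraries 4 to 6, against 2.72% and 2.74%. Its summed level was 414 to 1410 CPM in KO and 1784 to 2679 CPM in WT. Ccl28, which draws IgA-secreting cells, was at 12.2 to 38.1 CPM in KO and 44.4 to 91.1 CPM in WT (-1.58 ± 0.29), and Lif rose by 1.92 ± 0.36. The 9 falls among interferon genes became 19 with voom. The 3 rises among antimicrobial genes became 1 without KO library 4, 5 or 6 or WT library 1, 3, 4 or 6, 5 without KO library 2 or 3, 7 with voom and 6 with DESeq2. The 4 falls among antimicrobial genes became 10 with voom. The 5 rises among chemokines and cytokines became 2 to 3 without KO library 4, 5 or 6 or WT library 2, 3, 4, 5 or 6. The 3 falls among chemokines and cytokines became 1 without KO library 5, 5 to 6 without KO library 1 or 3, 8 with voom and 5 with DESeq2. The calls of Iigp1 (-2.68), Duox2 (0.70), Lcn2 (-1.19) and Lif (1.13) ended without KO libraries 4 to 6.

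Of 39 nuclear genes of the respiratory chain, 13 were lower and none was higher (median -0.42), against 10.5% and 14% of all genes. The falls numbered 2 without KO libraries 4 to 6 (median -0.15), against 2.74% of all genes. Sdha, the flavoprotein of complex II, was at 637, 1047, 1050.0, 770.1, 648 and 646 CPM in KO libraries 1 to 6 and 1525, 1346, 1323, 1453, 1920.3 and 1494 CPM in WT libraries 1 to 6, without overlap (-0.92 ± 0.17, adjusted p 0.00299). Ndufs1 of complex I and Uqcrc2 of complex III changed by -0.72 ± 0.15 and -0.74 ± 0.17. None of the 13 genes encoded in the mitochondrial genome passed, with or without KO libraries 4 to 6 (median -0.11). Of 34 genes of glycolysis and hypoxia, 12 rose and 2 fell, and 3 rose and 3 fell without KO libraries 4 to 6. The muscle phosphofructokinase Pfkm (-1.26 ± 0.16) and aldolase C, Aldoc (-1.62 ± 0.21), were lower in all KO libraries, at 6.82 to 12.3 and 3.25 to 6.22 CPM against 19.2 to 25 and 12.1 to 20.1 CPM in WT. Mif, a cytokine and hypoxia target, rose by 0.98 ± 0.16. Hk1, hexokinase 1, was at 1.67 to 5.27, 32.6 to 54.6 and 1.57 to 3.47 CPM in KO libraries 1 to 3, KO libraries 4 to 6 and WT (3.24 ± 0.81; adjusted p 0.555 without KO libraries 4 to 6), the glucose transporter Slc2a1 rose by 2.58 ± 0.56 and the lactate exporter Slc16a3 by 2.72 ± 0.55. Among 36 genes of cholesterol and fatty acid synthesis, 9 rose and 2 fell (median 0.082), with 1 rise and no fall without KO libraries 4 to 6. The sterol factor Srebf2 and the malic enzyme Me1 rose by 1.26 ± 0.32 and 2.43 ± 0.55, neither of which passed without KO libraries 4 to 6 (adjusted p 0.209 and 0.152). The 13 falls among respiratory chain genes became 8 without KO library 4, 5 or 6, 20 without KO library 1 and 27 with voom. The 12 rises among glycolysis and hypoxia genes became 7 without KO library 4, 5 or 6 or WT library 5. The 9 rises among lipid synthesis genes became 3 to 5 without KO library 4, 5 or 6 or WT library 1, 4 or 5. The 2 falls among lipid synthesis genes became 4 to 5 without KO library 2 or WT library 4 and 5 with voom. The calls of Ndufs1 (-0.54) and Uqcrc2 (-0.48) ended without KO libraries 4 to 6.

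Among the largest single rises, Esr1 (ENSMUSG00000019768, chromosome 10, 4611593 to 5005614), the gene of oestrogen receptor alpha, had similar levels in all KO libraries. It was at 43.1, 35.6, 45.1, 39.6, 32.1 and 44.3 CPM in KO libraries 1 to 6 and at 0.0262 to 0.266 CPM in WT. The log2 fold change was 8.70 ± 0.41 (adjusted p 3.22e-08), and 8.75 without KO libraries 4 to 6. Inducible Cre recombinases that answer tamoxifen carry a part of an oestrogen receptor. Counts per gene carry no information on exons, and whether reads of a transgene are counted as Esr1 was not tested. Gm13394, a predicted gene, was raised in all KO libraries too, at 60.4 to 142 CPM in KO and 0.328 to 0.503 CPM in WT (7.83 ± 0.26). Mboat1, a lysophospholipid acyltransferase, was raised in all KO libraries, 64.9 to 80.9 CPM in libraries 1 to 3 and 369 to 483 CPM in libraries 4 to 6, over 5.15 to 12.7 CPM in WT (5.01 ± 0.65). Syt8, a synaptotagmin, and Wfdc18, a secreted protein with a whey acidic protein domain, were under 1 CPM in KO libraries 1 to 3 and at 35.7 to 61.3 and 37.4 to 122 CPM in KO libraries 4 to 6. WT levels were 0 to 0.0655 and 0 to 0.184 CPM, too near 0 for a fold change to be read. Gml and Gml2, neighbours of the Ly6 family with similar sequences, were at 5.09 to 8.06 and 1.79 to 4.39 CPM in KO libraries 1 to 3, 45 to 92.8 and 26.4 to 58.4 CPM in KO libraries 4 to 6, and up to 1.44 and 1.41 CPM in WT.

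Among the largest falls outside the lists, Apol10a, of the apolipoprotein L family, was at 36.0 to 61.9 CPM in KO libraries 1 to 3, 0.592 to 1.30 CPM in KO libraries 4 to 6 and 272 to 622 CPM in WT (-3.88 ± 1.08). Slc5a4a, which encodes the glucose sensor SGLT3a, was at 6.14 to 10.5, 0.247 to 0.555 and 22.7 to 73.2 CPM (-3.15 ± 0.88). Pipox, which oxidises pipecolic acid, was at 15.7 to 17.6, 0.750 to 0.957 and 52.8 to 87.6 CPM (-2.95 ± 0.81), and Edn2, the peptide endothelin 2, at 2.88 to 6.32, 0.118 to 0.234 and 10.1 to 16.9 CPM (-2.68 ± 0.84). Each of these 4 was also called without KO libraries 4 to 6. Paqr7, a membrane progestin receptor, was at 1.60 to 9.73 CPM in KO and 18.7 to 55.8 CPM in WT (-2.70 ± 0.44), with less difference between the KO libraries.

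**Figure D4:**
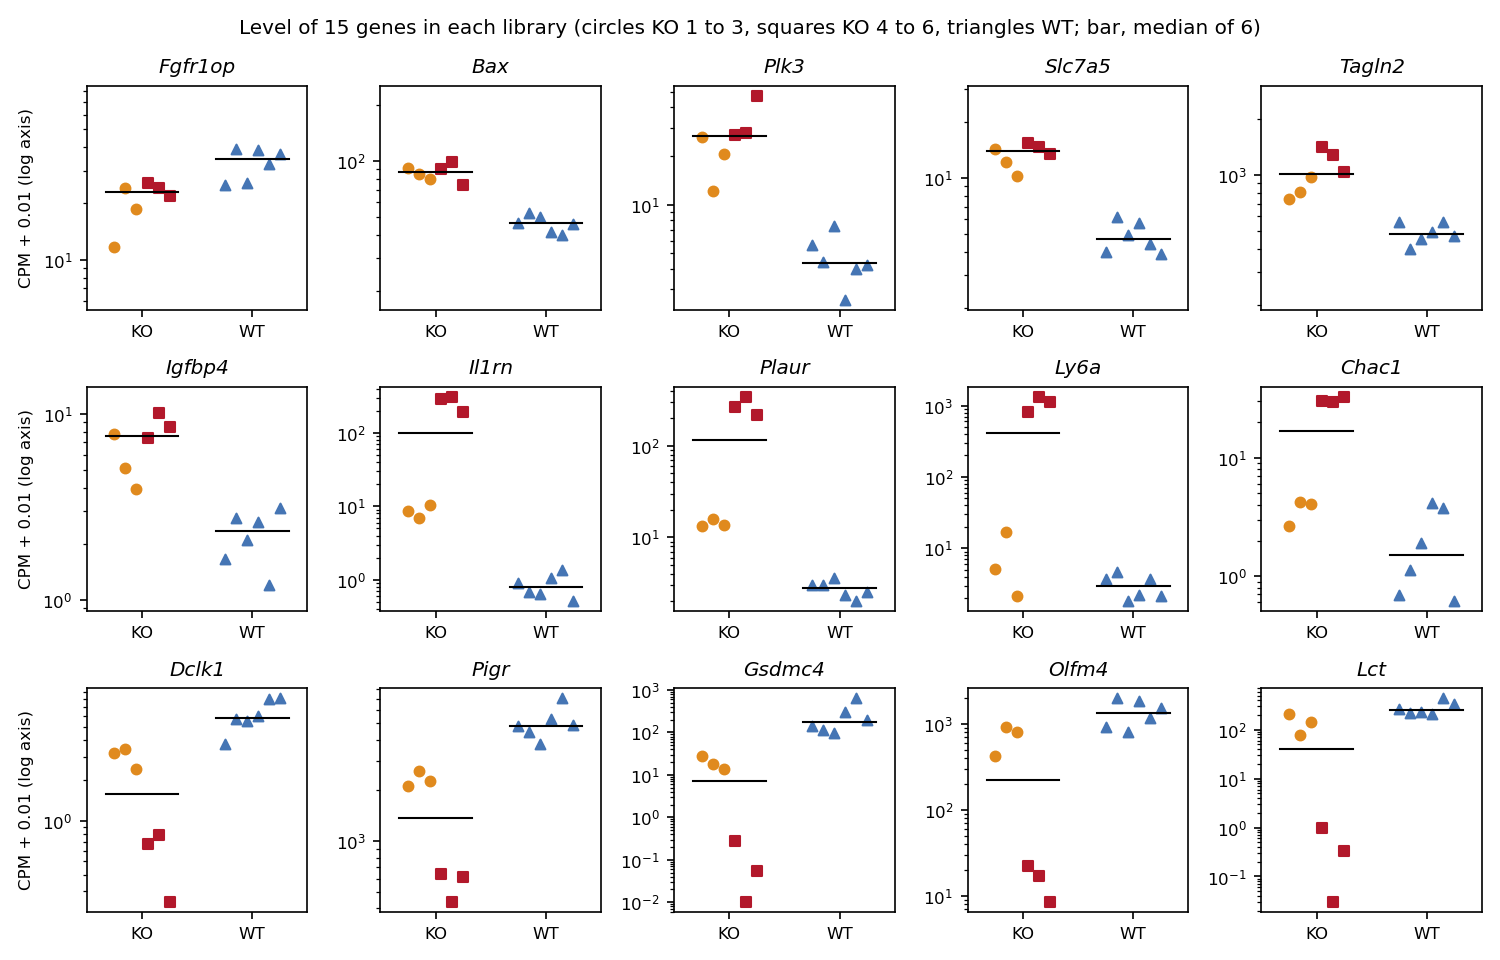
CPM of 15 genes in the 6 KO and 6 WT libraries on a log axis, each panel with its own scale and 0.01 added so that zeros can be drawn. Circles are KO libraries 1 to 3, squares KO libraries 4 to 6, triangles WT libraries and bars medians of 6. Bax, Plk3 and Slc7a5 are raised in all KO libraries, Il1rn and Plaur in 2 steps, Ly6a and Chac1 mainly in KO libraries 4 to 6, and Olfm4 and Lct are far lower in KO libraries 4 to 6 than in KO libraries 1 to 3.

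Markers of cells other than epithelium had few calls. None of 26 tested T and NK cell genes passed, and their summed level was 55.9 to 139 CPM in KO and 87.7 to 158 CPM in WT. In the B and plasma cell list 1 of 16 rose, Sdc1 (1.43 ± 0.21), which epithelium also expresses. Of the 19 listed genes with counts, 17 had the higher mean in KO, and their sum was 84.3 to 241 CPM in KO libraries 1 to 3, 272 to 460 CPM in KO libraries 4 to 6 and 73.2 to 288 CPM in WT. Of 29 myeloid genes in the table, 25 had the higher mean in KO and 10 were under 1 CPM in all 12 libraries, and of the 16 tested Cd68 (1.54 ± 0.45) and Cd14 (0.95 ± 0.33) rose, and Itgam (-1.11 ± 0.25) was lower. Adgre1 and Csf1r, which define macrophages, were at 0.0629 to 0.340 and 0.745 to 0.991 CPM in KO libraries 1 to 3, 0.623 to 4.45 and 2.01 to 5.95 CPM in KO libraries 4 to 6 and 0.0377 to 0.426 and 0.328 to 1.97 CPM in WT. Of 22 fibroblast genes 14 had the higher mean in KO, and of the 14 tested Fn1, fibronectin, rose (4.88 ± 1.51), at 0 to 0.186 CPM in KO libraries 1 to 3, 0.312 to 17.0 CPM in KO libraries 4 to 6 and 0.0449 to 0.222 CPM in WT, and was too low to be tested without KO libraries 4 to 6. Col1a1 was at 0.0635 to 2.33 CPM in KO and 0.0659 to 0.649 CPM in WT, and the smooth muscle gene Des stayed under 0.341 CPM in all 12 libraries. In the mast cell and eosinophil list 2 of 7 were lower, Kit (-1.54 ± 0.43) and a gene shared with tuft cells. The median log2 fold change of those 7 was 1.325, and it was -0.95 without KO libraries 4 to 6. Of the 14 listed genes, 11 had the higher mean in KO and 8 were under 1 CPM in all 12 libraries. Endothelial and red blood cell genes had no call among 10 and 5 tested, and smooth muscle, enteric neuron and acinar lists had 1 rise each. With KO libraries 4 to 6 left out, these lists, from T cells to acinar cells, had 2 calls, 1 rise in the B and plasma cell list and 1 fall among red blood cell genes. The part of macrophages, plasma cells or fibroblasts in the differences of KO libraries 4 to 6 was not tested. Falls among T and NK cell genes, of which edgeR called 0, numbered 1 to 6 without KO library 1 or 6 or WT library 2, 6 with voom and 2 with DESeq2. The 2 rises among myeloid genes became 0 to 1 without KO library 4, 5 or 6 or WT library 1, 2, 3, 4, 5 or 6, 4 without KO library 3, 7 with voom and 6 with DESeq2. The calls of Cd68 (0.15), Cd14 (0.20), Itgam (-0.79) and Kit (-0.93) ended without KO libraries 4 to 6.

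The KO effect in crypts was set against that in cultured small intestinal spheroids, 4 KO and 4 WT samples at day 3 after hydroxytamoxifen, which share no library with the crypts. A test of the difference between the 2 effects called 528 of 18485 genes (2.86%), 325 with the crypt effect higher (1.76%) and 203 with it lower (1.1%). It called 110 without KO libraries 4 to 6, 1336, 1128 and 1419 without KO library 1, 2 or 3, and 223 to 329 without KO library 4, 5 or 6 or WT library 4 or 5. Fgfr1op itself changed by -0.42 in spheroids (adjusted p 0.117), and the difference between the effects was -0.28 ± 0.26 (adjusted p 0.581). Of 37 genes called in spheroids (0.232% of 15915), 35 were tested in crypts. Over all genes tested in crypts, 24.5% were called there. Among the 37, 23 were called in crypts, 62.2% of the spheroid calls and 0.573% of the crypt calls. Of these, 22 had the same direction, Esr1, Gm13394, Rhoc, Cxcl16, Zyx and the MAP kinase phosphatase Dusp8 (2.54 in crypts and 0.69 in spheroids) among them. Mxd4, an antagonist of Myc, was the exception, at -0.38 ± 0.13 in crypts and 0.54 in spheroids (difference -0.97 ± 0.17, adjusted p 0.0072).

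For 7 of 40 p53 targets the effects differed, all with the crypt effect higher, against 1.76% of all genes, and for 5 without KO libraries 4 to 6, against 0.377%. Plk3 changed by 2.50 in crypts and -0.02 in spheroids (difference 2.47 ± 0.39, adjusted p 0.00636; 0.00735 without KO libraries 4 to 6), Phlda3 by 3.75 and 0.18 (3.56 ± 0.52, adjusted p 0.00491; 0.00127) and Bax by 0.91 and 0.18 (0.68 ± 0.14, adjusted p 0.0206; 0.0549). Slc7a5 changed by 1.46 in crypts and -0.18 in spheroids (difference 1.60 ± 0.27, adjusted p 0.00636). Of 39 fetal-like repair genes 10 differed, all with the crypt effect higher, and 3 without KO libraries 4 to 6. Of 32 ribosome biogenesis genes 5 differed in that direction, and 1 without those libraries. For 3 interferon genes the difference was negative: Irgm1, Ifi47 and Irf1 were lower in crypts and at 0.22, 0.28 and 0.22 in spheroids, where they did not pass, and the differences were -1.24 ± 0.26, -1.74 ± 0.37 and -1.10 ± 0.23 (adjusted p 0.0189, 0.0207 and 0.0191; 0.0613, 0.0468 and 0.0383 without KO libraries 4 to 6, where the difference of Irgm1 no longer passed). Plin2 was at -0.90 in crypts and 0.33 in spheroids (difference -1.28 ± 0.19).

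By the fitted value, the largest differences above the spheroid effect were Syt8 (9.89 ± 1.79), Anxa10, an annexin of the stomach (9.82 ± 2.41), and Nes, the intermediate filament nestin (7.92 ± 2.00). None of these 3 had over 8 counts in a WT crypt library, so the sizes depend on the small count added before the logarithm and cannot be read as folds. In the fit without KO libraries 4 to 6, Anxa10 and Nes did not pass (adjusted p 0.642 and 0.47). The largest below it were Paqr7 (-2.81 ± 0.56), Angpt2, a ligand of endothelial Tie2 (-2.37 ± 0.58), and Ccl5, a chemokine of T cells (-2.30 ± 0.57). The differences of Angpt2 and Ccl5 did not pass without KO libraries 4 to 6 (adjusted p 0.119 and 0.0705). Ccl5 did not pass in crypts alone (-0.69 ± 0.29) or in spheroids alone (1.58).

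**Figure D5:**
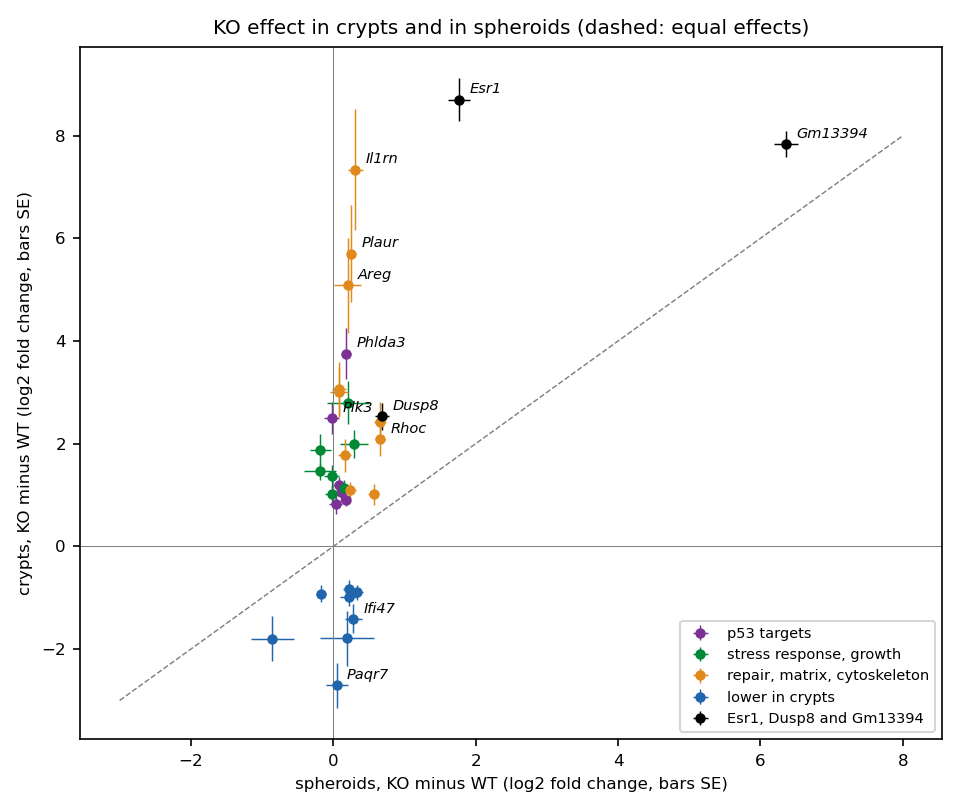
Log2 fold change of KO over WT in crypts (vertical axis) against that in spheroids (horizontal axis) for 34 genes described in the text, with standard errors as bars and a dashed line where both effects are equal. In crypts the genes spread from Paqr7 at -2.70 to Esr1 at 8.70, and Bax and Plk3 lie near 0 in spheroids, at 0.18 and -0.02.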

How the data were processed

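RNA of 12 crypt-enriched libraries was compared by genotype. The authors deposited raw counts of reads per gene for crypts and for spheroids. Per the submitters' processing notes, STAR, DESeq2 and the mouse build mm10 were used, with no version or role given. The counter, the annotation and the strand setting are not given in the sources used here, so a gene and an overlapping antisense gene cannot be told apart. The table had 40757 entries, of which 276 repeats with equal counts were removed, leaving 40481 genes, and positions of 40254 come from GENCODE M21 (mm10). The column names were matched to genotype only.

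Genes were filtered with filterByExpr, scaled by TMM and tested with edgeR 4.0.16 (quasi-likelihood test, robust, R 4.3.3), with Benjamini-Hochberg adjustment over all genes tested and a threshold of 0.05. CPM values are deposited counts divided by the TMM-scaled total of the library. The difference of effects was tested in 1 model over crypt and spheroid libraries, with 1 spread per gene for both. Whether the spread of a gene was alike in crypts and spheroids was not tested. On simulated data the test recovered 57% of 100 genes changed 2-fold and 92% of 100 changed 4-fold, with 9 false calls among 16413 genes. The changed genes were drawn from the better expressed ones and shifted alike in every KO library. In the real data KO libraries 4 to 6 stood apart, so these rates need not hold for them. Libraries of a genotype differed by more than counting error, with a chi-square per degree of freedom of at least 66.7. None was thus a second sequencing of another, but this value cannot tell whether 2 libraries came from the same mouse. Alternatives were RLE scaling, no filter, a minimum of 1 CPM, limma 3.58.1 (voom with sample weights), DESeq2 1.42.0, each library left out, 1 surrogate variable (sva 3.50.0), a replicate block, a sex covariate, stricter thresholds and, added after the data were seen, KO libraries 4 to 6 left out.

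The comparison and the gene lists were chosen with earlier results of these data known, so counts over a list are descriptions. Genes were named by rule: the target, the 12 largest rises and 12 largest falls among called genes whose mean log2 CPM reached 2, whose genotypes did not overlap and whose names are not those of predicted genes, clones or receptor segments, the 3 smallest p-values in each list with at least 3 calls, the 2 smallest in the stem, Paneth, cycle, centrosome, actin and p53 lists, and the 3 largest differences from spheroids each way. Chosen after their values were seen were Lgr5, Olfm4, Lyz1, Ly6a, Anxa1, Clu, Lct, Slc10a2, Mdm2, Ccng1, Asns, Trib3, Chac1, Atf4, Myh9, Zyx, Cd74, Dclk1, Pou2f3, Gm13394, Dusp8, Capn2, Flna, Bysl, Slc7a11, Hmox1, Hk1, Slc16a3, Mxd4, Ucn3, Plk2, Bbc3, Fas, Sesn1, Ninl, Cep97, Kif3a, Cldn4, Cldn2, Krt7, Nid1, Fosl1, Jun, Casp6, Iigp1, Psmb9, Ciita, H2-DMa, Slc2a1, Slc2a5, Cyp4a10, Ppara, Vdr, Gsta1, Adh4, Lcn2, Duox2, Fn1, Sdc1, Kit, Spdef, Epas1, Tfrc and F3. A few genes that the rule would name are not reported here. Promoters come from RefSeq, GRCm38.p6.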

Additional observations from a re-analysis of the deposited data

Results flagged for a closer look

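Some libraries lay far from the other 5 of their genotype for a named gene, as the gap to the nearest library divided by the range of the 6 was above Dixon's 95% critical value of 0.625. This held in 28 of 388 groups. The critical value sets a rate of about 1 in 20 for independent groups of normally distributed values. CPM of genes from the same libraries need not be such, so that rate is only a rough guide. KO library 1 was the highest of its genotype for Plk4 (13.4 CPM, against 7.45 to 9.09 CPM in the other 5), Phlda3 (2.33 CPM, against 0.409 to 0.908 CPM in the other 5), Mxd4 (34.6 CPM, against 23.2 to 25 CPM in the other 5), Cdt1 (18.1 CPM, against 6.65 to 8.85 CPM in the other 5) and Jun (17.9 CPM, against 8.99 to 11.7 CPM in the other 5). KO library 3 was the lowest of its genotype for Cdc20 (23.7 CPM, against 35.5 to 40.4 CPM in the other 5). KO library 5 was the highest of its genotype for Fn1 (17.0 CPM, against 0 to 6.23 CPM in the other 5). KO library 5 was the lowest of its genotype for Il17rb (0.513 CPM, against 1.13 to 1.43 CPM in the other 5). KO library 6 was the highest of its genotype for Neat1 (1386 CPM, against 150.2 to 493 CPM in the other 5). WT library 1 was the highest of its genotype for Esr1 (0.266 CPM, against 0.0262 to 0.111 CPM in the other 5), Gml2 (1.41 CPM, against 0 to 0.480 CPM in the other 5) and Areg (3.02 CPM, against 0.185 to 1.19 CPM in the other 5). WT library 2 was the highest of its genotype for Iigp1 (7.26 CPM, against 0.540 to 1.46 CPM in the other 5), Ciita (28.5 CPM, against 8.21 to 14.5 CPM in the other 5) and Lrp8 (1.91 CPM, against 0.785 to 1.15 CPM in the other 5). WT library 3 was the highest of its genotype for Ppl (3.70 CPM, against 1.28 to 1.99 CPM in the other 5). WT library 3 was the lowest of its genotype for Cd14 (8.30 CPM, against 19.3 to 23.8 CPM in the other 5). WT library 4 was the highest of its genotype for Mptx1 (39.0 CPM, against 17.1 to 23 CPM in the other 5), Ccl6 (649 CPM, against 383 to 459 CPM in the other 5), Anxa1 (6.41 CPM, against 0.433 to 2.56 CPM in the other 5), Clu (10.9 CPM, against 1.96 to 4.67 CPM in the other 5) and Slc7a11 (2.11 CPM, against 0.998 to 1.35 CPM in the other 5). WT library 4 was the lowest of its genotype for Gsn (36.8 CPM, against 57.8 to 66.6 CPM in the other 5). WT library 5 was the highest of its genotype for Apol10a (622 CPM, against 272 to 383 CPM in the other 5), Sdha (1920.0 CPM, against 1323 to 1525 CPM in the other 5) and Duox2 (108 CPM, against 32.7 to 60.8 CPM in the other 5). WT library 6 was the highest of its genotype for Hsp90aa1 (256 CPM, against 186 to 211 CPM in the other 5) and Neat1 (220.4 CPM, against 128 to 159 CPM in the other 5).

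For 65 of the 194 named genes in the crypt fit, the KO effect differed between crypts and spheroids by a test of the difference. Over all 18485 genes in that test, 2.86% differed. The named genes were mostly chosen by p-value, fold change or difference, or after their values were seen, so their share is a description. Anxa10 (9.82) and Nes (7.92), too low in most libraries to enter the crypt fit, differed in the test over both kinds of sample. Of the 65, those whose difference the report gives were higher in crypts for Syt8 (9.89), Esr1 (6.89), Phlda3 (3.56), Plk3 (2.47), Slc7a5 (1.60) and Bax (0.68), as log2 differences. They were lower for Paqr7 (-2.81), Angpt2 (-2.37), Ccl5 (-2.30), Ifi47 (-1.74), Plin2 (-1.28), Irgm1 (-1.24), Irf1 (-1.10) and Mxd4 (-0.97).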

How the results depend on the processing

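Of 16413 genes tested, 4014 were called, and this count was 7208 with limma voom and sample weights, 1798 at 2-fold or more as well, 1447 at an adjusted p below 0.01 and 924 without KO libraries 4 to 6. It was 27 within the lower and 6940 within the higher range of column numbers, and 5186 with a block on the ranges. These library sets and ranges were chosen after the data were seen. It lay between 2749 (without WT library 5) and 5005 (without KO library 1) when 1 library was left out, was 3975 with RLE scaling, 3149 with no filter, 3702 with a minimum of 1 CPM, 4914 with DESeq2, 3666 with 1 surrogate variable and 3791 with sex as a covariate. The running numbers are shared by both genotypes, but same-numbered KO and WT libraries did not deviate together (correlations of -0.0652 to 0.106, none highest for its own number). With the replicate block on that number, 2732 genes were called, 1396 higher and 1336 lower, and Fgfr1op kept its call at -0.67 (adjusted p 0.0188). With 1 library left out, Fgfr1op lay between -0.74 and -0.52, with adjusted p-values of 0.0211 to 0.0543, and it did not pass without WT library 2 (-0.59) or WT library 6 (-0.61) or within the lower range of column numbers (-0.82). With the replicate block the tuft cell falls numbered 6 in place of 14.

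The count of genes whose effect differed between crypts and spheroids was 528. It was 273 with no filter, 4778 with limma voom, 1457 with DESeq2 and 110 without KO libraries 4 to 6, and it ran from 223 (without KO library 4) to 1419 (without KO library 3) with 1 library left out. Of 188 named genes that were called, 187 remained called with RLE scaling, 152 with no filter, 184 with voom, 188 with DESeq2, 178 with 1 surrogate variable, 147 with the block and 160 (without WT library 5) or more with 1 library left out. Without KO libraries 4 to 6, 186 of them were tested, 110 remained called and 75 did not with the same sign, while Anxa1 turned to -0.84. Of 40 list counts, 33 moved by over 1.5 times without KO libraries 4 to 6, 15 with the block, and 10 with a block on the 2 ranges of column numbers. Within the lower range (3 KO against 2 WT libraries) all 40 moved, 17 of the 188 named genes remained called and Fn1 turned to -0.93, and within the higher range 16 moved and 184 remained called. At most 15 moved under any other alternative. Why these counts moved was not tested. Genes near 0 CPM in WT have fold changes that depend on the small count added before the logarithm.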

Other observations

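Genes outside every list, chosen after their values were seen, also differed between the genotypes. Tnfrsf12a, the receptor of the cytokine TWEAK, was at 52.4 to 75.3 CPM in KO libraries 1 to 3, 220.0 to 329.7 CPM in KO libraries 4 to 6 and 6.93 to 10.4 CPM in WT (4.34 ± 0.52, edgeR adjusted p 0.00118; 2.84 without KO libraries 4 to 6, adjusted p 3.19e-07). Etv4, a transcription factor that responds to MAP kinase signalling, was at 2.20 to 10.5 CPM in KO and 0.0897 to 0.461 CPM in WT (4.50 ± 0.55), and Lrp8, a lipoprotein receptor, at 5.47 to 14.9 and 0.785 to 1.91 CPM (2.96 ± 0.30). Ckb, the brain-type creatine kinase, was at 527 to 717, 1951 to 2256 and 71.5 to 231 CPM in KO libraries 1 to 3, KO libraries 4 to 6 and WT (3.20 ± 0.48), the actin-severing protein Gsn at 114 to 157, 467 to 515 and 36.8 to 66.6 CPM (2.44 ± 0.40), the calcium-binding protein S100a11 at 192 to 251, 868 to 1044 and 56.3 to 116 CPM (2.91 ± 0.47) and Sfn, 14-3-3 sigma, at 207 to 222, 561 to 599 and 108 to 183 CPM (1.45 ± 0.31; adjusted p 0.076 without KO libraries 4 to 6).

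Acta1, the actin of skeletal muscle, went the other way among the KO libraries. It was at 45.6, 49.5, 53.8, 9.66, 7.79 and 6.47 CPM in KO libraries 1 to 6 and 9.35, 6.59, 5.11, 8.31, 9.11 and 7.28 CPM in WT libraries 1 to 6, so that KO libraries 4 to 6 lay close to WT and KO libraries 1 to 3 well above it (1.92 ± 0.54, adjusted p 0.0237; 2.71 without KO libraries 4 to 6, adjusted p 1.62e-06). Oat, ornithine aminotransferase, fell from 2971 to 5407 CPM in WT to 1246 to 1577 CPM in KO libraries 1 to 3 and 275 to 393 CPM in KO libraries 4 to 6 (-2.23 ± 0.46). Tnfsf10, the death ligand TRAIL, was at 12.2 to 15.8, 0.868 to 1.56 and 32.3 to 60.1 CPM in the same order (-2.54 ± 0.73). In the family of membrane progestin receptors Paqr5 (-1.76 ± 0.21) changed in the same direction as Paqr7, and Paqr8 rose by 4.59 ± 0.70.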
